A study of Mus musculus with 8 samples.

Results

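Protein phosphatases of the DUSP and PPP families were examined in the gastrocnemius, a fast calf muscle, of mice with sepsis. The members were the gene rows whose symbol begins with Dusp and a number, or with Ppp, a family number from 1 to 6, letters and a further number, leaving out the glycogen-targeting subunits Ppp1r3a and Ppp1r3c. This gave 87 of 25655 rows: 24 dual-specificity phosphatase (DUSP) genes and 63 genes of regulatory subunits and inhibitors of the PPP phosphatases. The symbols of the PPP catalytic subunits, such as Ppp1ca or Ppp4c, are not matched by that pattern, so these 13 genes served as a comparison list and are not counted as members.

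The samples were 3 from mice given cecal slurry, which is gut content from the cecum and causes polymicrobial sepsis, and 5 from control mice given 10% glycerol. All mice in both groups were male and wild type (WT), and all samples were labelled day 4; the labels give no age, strain or animal identity, so the p-values reflect the spread among these samples alone, which may be technical. RNA was measured with 3′-end libraries, in which each captured transcript gives about 1 read near its polyadenylated end. Read counts are given as CPM, the count in a library scaled to a fixed total with TMM factors.

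Reversible phosphorylation is undone by a small number of catalytic phosphatases and a large number of partners. PPP enzymes remove phosphate from serine and threonine, and their regulatory subunits decide which substrates the shared catalytic subunits reach. The DUSP family removes phosphate from tyrosine as well, and its MAP kinase phosphatases switch off ERK, JNK and p38. In skeletal muscle, PP1 is known for its part in glycogen and myosin regulation and in restarting translation after stress, and calcineurin (PP3) for calcium-dependent control of fibre-type genes.

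Promoter sequence is shown for 6 members, the 3 with the largest increases and the 3 with the largest decreases among members that passed and have a single promoter entry, so that the windows of raised and lowered genes can be read side by side. Each runs 5′ to 3′ on the gene's own strand from 250 bases before to 50 bases after the annotated start, from RefSeq on GRCm38.p6. Ppp2r3a, which fell further than Dusp23 and Dusp8, has several entries, and none was found for Dusp26. Capitals mark letters matched by a motif search on both strands, which left the frequent E-box and GC box in lower case: the cAMP response element TGACGTCA in Ppp1r15a and Dusp8, TATAAA in Ppp1r15a, a MEF2-type A/T-rich element in Dusp27, and CCAAT or its complement ATTGG in Dusp10, Dusp23 and Dusp8. No letters were marked in Dusp2. Some marked matches begin at or after the annotated start: TATAAA of Ppp1r15a 15 bases after it, CCAAT of Dusp23 35 bases after it, and the last ATTGG of Dusp10 at the start itself.
Ppp1r15a, higher in sepsis, chr7:45526219-45526518, minus strand: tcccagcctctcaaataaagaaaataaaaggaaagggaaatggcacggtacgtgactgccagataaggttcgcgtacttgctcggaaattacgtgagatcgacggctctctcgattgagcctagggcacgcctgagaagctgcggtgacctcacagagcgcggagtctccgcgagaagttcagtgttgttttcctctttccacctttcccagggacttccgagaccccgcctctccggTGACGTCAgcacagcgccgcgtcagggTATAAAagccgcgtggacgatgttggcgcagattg
Dusp27, higher in sepsis, chr1:166127849-166128148, minus strand: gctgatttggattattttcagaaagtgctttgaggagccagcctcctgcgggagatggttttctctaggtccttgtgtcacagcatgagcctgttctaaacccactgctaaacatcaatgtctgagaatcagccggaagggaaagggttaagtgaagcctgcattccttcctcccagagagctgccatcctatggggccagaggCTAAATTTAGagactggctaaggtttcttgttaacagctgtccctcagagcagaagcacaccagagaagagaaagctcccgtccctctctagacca
Dusp2, higher in sepsis, chr2:127335909-127336208, plus strand: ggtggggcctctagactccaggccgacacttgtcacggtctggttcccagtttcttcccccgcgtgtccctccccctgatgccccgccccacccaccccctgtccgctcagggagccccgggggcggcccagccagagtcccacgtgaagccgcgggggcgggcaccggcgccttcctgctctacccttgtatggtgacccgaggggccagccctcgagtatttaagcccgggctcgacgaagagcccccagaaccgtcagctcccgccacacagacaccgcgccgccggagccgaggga
Dusp10, lower in sepsis, chr1:184034131-184034430, plus strand: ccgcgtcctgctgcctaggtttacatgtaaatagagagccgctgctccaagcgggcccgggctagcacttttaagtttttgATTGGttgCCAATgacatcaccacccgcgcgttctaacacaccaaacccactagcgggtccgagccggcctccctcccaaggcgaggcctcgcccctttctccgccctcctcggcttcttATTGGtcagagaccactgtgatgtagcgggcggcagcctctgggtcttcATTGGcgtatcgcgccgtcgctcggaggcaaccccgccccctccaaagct
Dusp23, lower in sepsis, chr1:172632925-172633224, minus strand: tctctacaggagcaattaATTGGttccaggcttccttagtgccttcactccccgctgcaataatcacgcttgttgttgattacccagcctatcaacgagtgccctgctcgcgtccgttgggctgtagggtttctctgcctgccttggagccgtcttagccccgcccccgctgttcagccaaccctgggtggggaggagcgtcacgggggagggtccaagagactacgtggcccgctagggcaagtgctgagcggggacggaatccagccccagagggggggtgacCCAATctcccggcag
Dusp8, lower in sepsis, chr7:142095235-142095534, minus strand: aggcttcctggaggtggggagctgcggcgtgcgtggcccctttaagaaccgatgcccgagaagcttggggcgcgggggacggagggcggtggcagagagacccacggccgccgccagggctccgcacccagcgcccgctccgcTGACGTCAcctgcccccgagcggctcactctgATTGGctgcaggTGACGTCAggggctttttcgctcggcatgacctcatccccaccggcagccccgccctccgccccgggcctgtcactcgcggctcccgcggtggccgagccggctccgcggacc

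A RefSeq promoter entry was found for 69 of the 87 members, and of these 11 belonged to genes that were higher and 16 to genes that were lower by the test described further on. TGACGTCA stood in the windows of Dusp1, Dusp8, Ppp1r12c, Ppp1r15a and Ppp2r2d, that is 5 of 69 members, and in 1.79% of all 32851 promoters of the same length. It was found in 2 of 11 members that were higher and in 1 of 16 that were lower. The MEF2-type element stood in 2 of 69 members, a share near the 3.19% of all promoters. These were Dusp16 and Dusp27, both higher. TATAAA stood in 6 of 69 members, in 3 of the 11 higher and 0 of the 16 lower ones, and in 13.6% of all promoters. CCAAT stood in 27 of 69 members, in 5 of 11 higher and 10 of 16 lower ones, and in 37.4% of all promoters. The GC box GGGCGG stood in 49 of 69 members, in 7 of 11 higher and 14 of 16 lower ones, and in 35.7% of all promoters. The E-box CANNTG stood in 48 of 69 members and 72.3% of all promoters. The STAT motif TTCNNNGAA stood in 5 of 69 members and 8.3% of all promoters, the amino acid response core TGATGNAA in 3 and 3.97%, the AP-1 motif TGANTCA in 1 and 7.81%, and the CArG box in 1 and 1.63%. The FOXO motif GTAAACA and the glucocorticoid response element were found in 0 of 69 members, and in 3.65% and 0.475% of all promoters. A member with several entries counts once if any of them holds the motif, whereas the shares over all promoters count each entry. A match is a run of letters and was not tested as a binding site.

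Septic libraries held 3337851 to 3765726 counted reads, and control libraries 3086277 to 4016329. After scaling, 1 read was worth 0.210 to 0.266 CPM in septic and 0.278 to 0.362 CPM in control libraries. Mitochondrially encoded genes took 12.6% to 16.9% of reads in sepsis and 21.7% to 26.7% in controls. No libraries of a group agreed within sampling noise: chi-square values per degree of freedom ran from 11.01 to 26.3 between septic and from 2.04 to 6.86 between control libraries. All 10 muscle fibre markers had enough reads to be tested, and their summed level was 62368 to 87914 CPM in sepsis and 142426 to 167666 CPM in controls, with 10 of 10 lower. The 10 neutrophil markers had summed levels of 66.5 to 145 CPM in sepsis and 0.301 to 1.08 CPM in controls, with Mpo at 0. Of these markers 4 were tested and all 4 were higher. They had enough reads to be tested in the septic libraries alone, so that direction was set beforehand. Macrophage markers summed to 340 to 573 CPM in sepsis and 83.2 to 208 CPM in controls, with 7 of 9 tested higher, and fibroblast markers to 286 to 418 CPM in sepsis and 1320 to 2829 CPM in controls, with 7 of 7 lower. Smooth muscle and pericyte markers summed to 199.6 to 215 CPM in sepsis and 270.4 to 335 CPM in controls, with 2 of 6 tested lower. Of 4 tested Schwann cell markers 3 were lower, and of 8 tested endothelial markers 4 were higher and 1 lower. In such bulk samples, fewer cells of a type and less RNA per cell cannot be told apart, and the part of these shifts in the results on phosphatase genes was not tested.

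Reads were found for 81 members, and 63 passed the filter on low counts, 19 DUSP and 44 regulatory genes. In the quasi-likelihood test of edgeR, with Benjamini-Hochberg adjustment over all genes tested, 31 of the 63 changed, 14 higher and 17 lower. The groups did not overlap in 14 members that lay higher and 17 that lay lower in sepsis, against 23.1% and 24.3% of all genes tested and 47.5% of them in either direction. The 31 that passed are 49.2% of tested members, against 50.4% of all 9810 genes tested, so the number of changed members was near the background. The median log2 fold change was -0.07 over members and 0.01 over all genes. The direction balance depends on scaling: when libraries were scaled by their totals alone, 29 members rose and 7 fell, and the median of all genes moved to 0.43, so directions below are relative to the TMM-scaled bulk of genes.

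The counts by class were as follows, first with any size of change and then with at least 2-fold. Of 19 DUSP genes, 5 were higher and 7 lower, and 9 of these 12 changed at least 2-fold, which is 47.4% of the DUSP genes tested. Of 44 regulatory genes, 9 were higher and 10 lower, and 5 changed at least 2-fold, or 11.4%. Of 11 catalytic genes tested, 3 were higher and 3 lower, and Ppp3cb alone changed at least 2-fold, or 9.09%. Among all genes tested, 26.0% passed and changed at least 2-fold. With any size of change, 63.2% of DUSP, 43.2% of regulatory and 54.5% of catalytic genes passed. The share over all genes was 50.4%, with 25.2% in each direction. The median size of the log2 fold change, whatever its direction, was 0.73 for DUSP genes, 0.51 for regulatory genes, 0.46 for catalytic genes and 0.58 for all genes. No test of the difference between classes was run, because the classes were chosen with earlier results known. Without the second septic library, 7 DUSP genes changed at least 2-fold, and without septic library 3, 3 catalytic genes did.

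**Figure D1:**
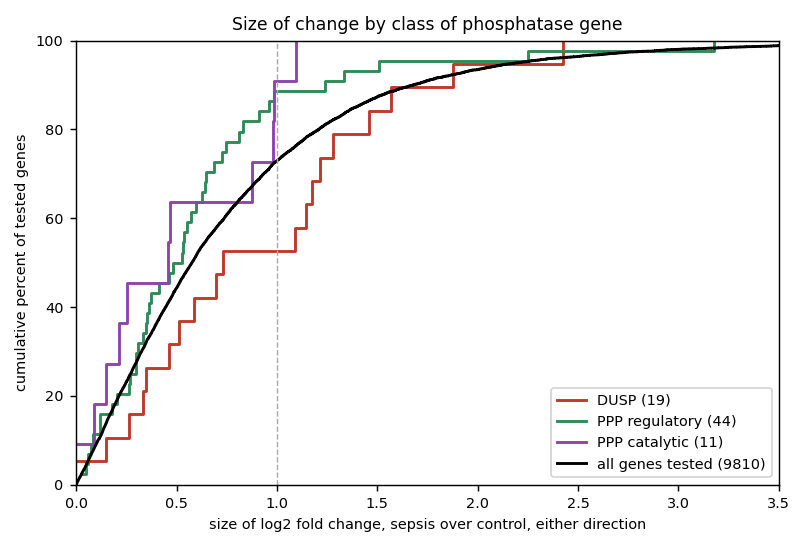
Cumulative percent of tested genes (vertical axis) by the size of their log2 fold change between sepsis and control in either direction (horizontal axis), for 19 DUSP, 44 PPP regulatory and 11 PPP catalytic genes and for all 9810 genes; the dashed line marks a 2-fold difference. The DUSP curve lies below that of all genes over much of the range, with a median size of 0.73, and the regulatory and catalytic curves lie above it around the dashed line.

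**Figure D2:**
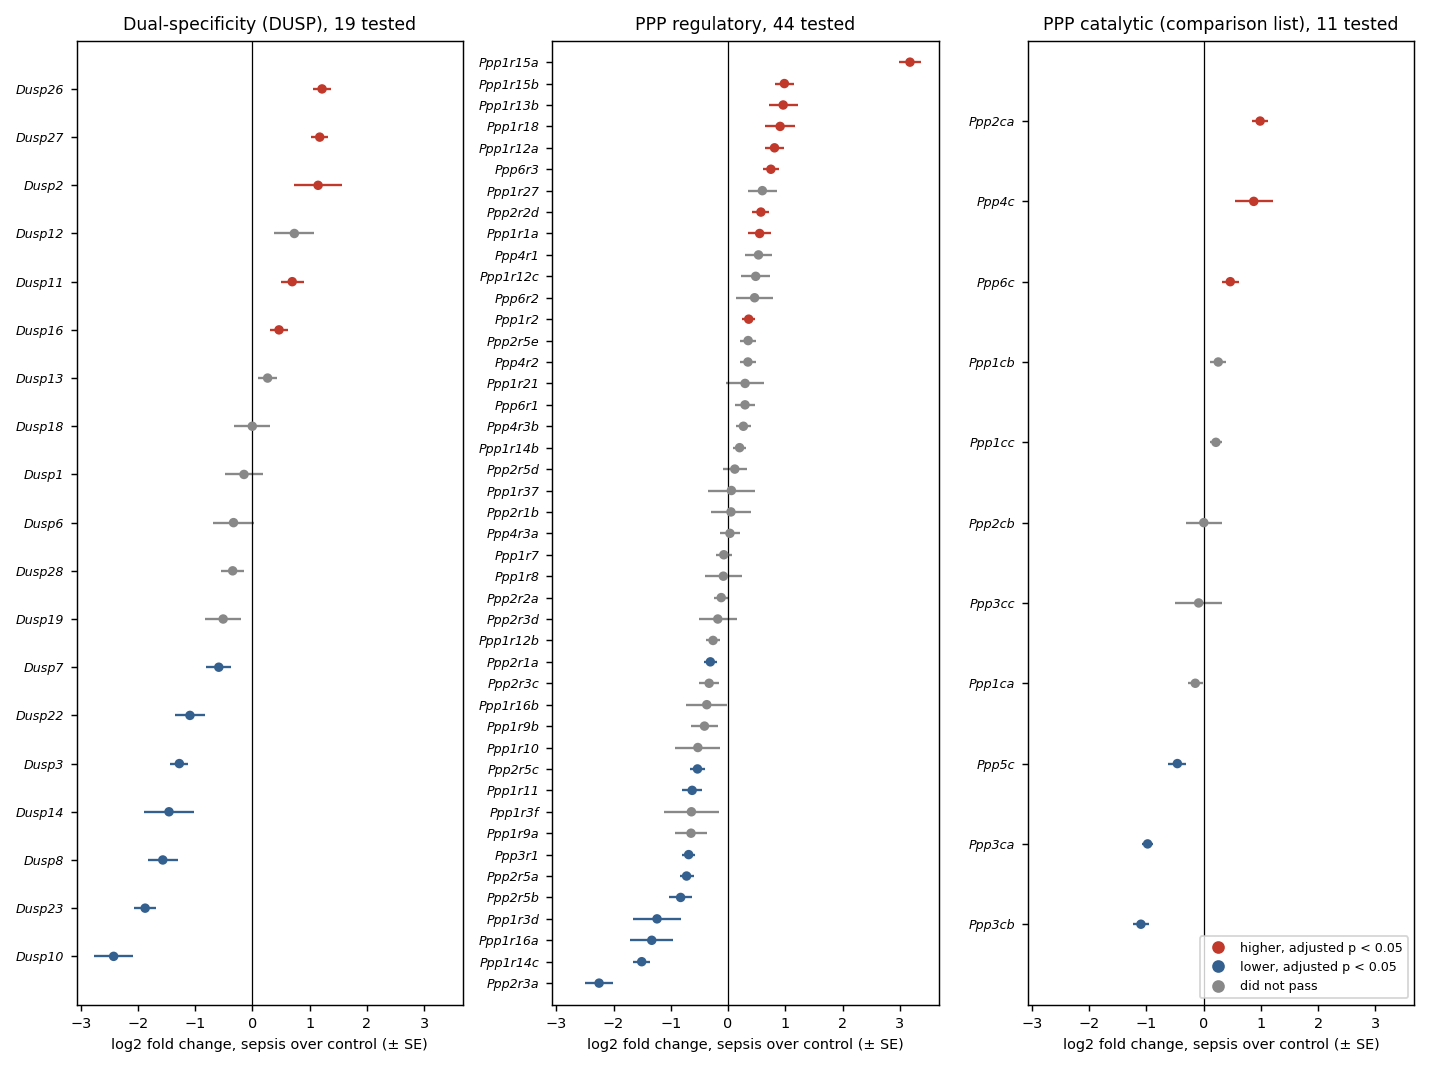
Log2 fold change of sepsis over control (horizontal axis, with SE bars) for each tested gene, in 3 panels for DUSP, PPP regulatory and PPP catalytic genes; red genes were higher and blue genes lower at adjusted p under 0.05, and grey genes did not pass. Ppp1r15a stands far to the right at 3.18, and Dusp10 and Ppp2r3a lie at the left ends of their panels at -2.42 and -2.25.

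The largest increase of any member was that of Ppp1r15a (ENSMUSG00000040435), which encodes GADD34, a stress-induced subunit that directs PP1 to the translation factor eIF2α. It stood at 209.6, 137 and 150.2 CPM in septic muscle, against 13.05, 20.4, 23.5, 20.6 and 14.02 CPM in control muscle. Every septic library lay far above every control library. The difference was 9.04-fold, with a log2 fold change of 3.18 (SE 0.20, edgeR adjusted p = 9.53e-08). Its constitutive counterpart Ppp1r15b, which encodes CReP and acts on the same substrate, had 41.8, 30.5 and 34.7 CPM in sepsis, against 21.7, 16.3, 19.6, 14.1 and 17.8 CPM in controls. These groups did not overlap either, and the difference was 1.98-fold (log2 0.98, SE 0.17, edgeR adjusted p = 0.00034). Both increases passed under all 14 alternative settings. Since a transcript gives about 1 read whatever its length, reads of a family can be set side by side, if capture is alike. Of the reads of these 2 genes, Ppp1r15a took 82.1% ± 1.12 in sepsis (SD, n = 3) and 50.2% ± 9.07 in controls (SD, n = 5). Ppp1r15a faces Tulp2 on the opposite strand at its 3′ end, and how the counting treated strand is not given in the sources used here. Tulp2's own row held 19 reads over the septic and 4 over the control libraries, where Ppp1r15a held 2097 over the septic and 291 over the control libraries.

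Among other PP1 partners, genes of myosin and ankyrin-repeat targeting subunits moved in both directions. Ppp1r12a encodes MYPT1, the myosin-targeting subunit of broad expression, and had 95.2, 92.6 and 154 CPM in sepsis, against 63.3, 66.9, 68.4, 67.6 and 58.3 CPM in controls, with no overlap. It was 1.75-fold higher (log2 0.81, SE 0.16, edgeR adjusted p = 0.000909). Its paralog Ppp1r12b, known as the form of heart and skeletal muscle, had 119, 108 and 90.2 CPM in sepsis, against 134, 121, 129, 123 and 128 CPM in controls. The groups of Ppp1r12b did not overlap, but its log2 fold change of -0.26 did not pass (edgeR adjusted p = 0.0754); it passed without the first septic library, at -0.36 and edgeR adjusted p = 0.0278. Ppp1r12a took 47.8% ± 9.40 of the reads of the Ppp1r12 genes in sepsis and 31.9% ± 1.89 in controls, and Ppp1r12b took 45.6% ± 9.74 in sepsis and 62.5% ± 2.27 in controls. In the third septic library the share of Ppp1r12a reached 58.5%. Ppp1r16a, which encodes the related MYPT3, was lower by 2.52-fold, at 3.19, 2.73 and 2.05 CPM in sepsis, against 4.16, 5.34, 8.13, 11.6 and 4.78 CPM in controls (edgeR adjusted p = 0.01).

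PP1 inhibitors formed a second group with opposite changes. Ppp1r14c encodes KEPI, a phosphorylation-dependent PP1 inhibitor, and had 38.3, 32.4 and 28.3 CPM in sepsis, against 74.4, 95.4, 97.9, 92.6 and 109 CPM in controls. All septic libraries lay below all controls, and the gene was 2.84-fold lower (log2 -1.51, SE 0.15, edgeR adjusted p = 4.39e-06). Ppp1r14b, a widely expressed inhibitor of the same family named here after its values were seen, had 96.3, 92.6 and 96.1 CPM in sepsis, against 84.4, 81.6, 72.9, 83.9 and 90.5 CPM in controls, and did not pass (edgeR adjusted p = 0.144). Ppp1r14b took 73.4% ± 2.51 of the family's reads in sepsis and 46.4% ± 3.89 in controls, while Ppp1r14c took 25.4% ± 2.93 in sepsis and 52.3% ± 3.75 in controls. A near-identical copy, Ppp1r14bl, has its own row, so reads of Ppp1r14b are uncertain. Ppp1r11, which encodes inhibitor-3, was lower at 14.9, 17.4 and 13.01 CPM in sepsis, against 26.1, 26.1, 23.8, 18.8 and 21.99 CPM in controls (log2 -0.63, edgeR adjusted p = 0.00896). Ppp1r2, which encodes inhibitor-2, was higher at 78.2, 80.5 and 91.6 CPM in sepsis, against 68.6, 59.95, 67.5, 65.1 and 63.7 CPM in controls (log2 0.36, edgeR adjusted p = 0.016). Ppp1r1a, the gene of inhibitor-1, had 34.8, 33.8 and 59.1 CPM in sepsis, against 22.5, 27.6, 34.03, 32.5 and 29.00 CPM in controls (log2 0.55, edgeR adjusted p = 0.0349). The groups of Ppp1r1a overlapped, and without the third septic library its log2 fold change was 0.24 at edgeR adjusted p = 0.257. It also missed the threshold without control 1, 2 or 5, at edgeR adjusted p = 0.0783, 0.0728 and 0.0653. Ppp1r14a, the smooth muscle inhibitor CPI-17, had 20 reads in sepsis and 36 in controls and was not tested.

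The remaining PP1 partners that passed included Ppp1r13b, which encodes the p53-binding protein ASPP1. It had 8.51, 9.87 and 9.59 CPM in sepsis, against 4.44, 3.45, 3.61, 6.87 and 5.74 CPM in controls, and was 1.95-fold higher (edgeR adjusted p = 0.00656). Zfyve21 lies on the opposite strand at its 3′ end, with 84 reads in sepsis and 113 in controls, so its reads are less certain than those of genes without such a neighbour. Ppp1r18, which encodes the actin-binding phostensin, had 7.98, 6.93 and 11.2 CPM in sepsis, against 5.27, 5.65, 3.31, 4.34 and 4.46 CPM in controls (log2 0.91, edgeR adjusted p = 0.00973), and missed the threshold without the third septic library at 0.68 and edgeR adjusted p = 0.0655. Ppp1r3d, a glycogen-targeting subunit, was lower at 1.86, 0.84 and 1.14 CPM in sepsis, against 2.22, 3.45, 3.92, 3.25 and 2.23 CPM in controls (log2 -1.24, edgeR adjusted p = 0.0252). Its counts were a few reads per library, and it missed the threshold without the second septic library (edgeR adjusted p = 0.0978) or the third (edgeR adjusted p = 0.0792). Without control 2, 3 or 4, Ppp1r3d did not pass the filter on low counts. It passed that filter through these control libraries alone, at 11, 13 and 9 reads. Its call, counted among the decreases of at least 2-fold, therefore rests on a gene let in by the group where it was higher. The liver-type glycogen subunit gene Ppp1r3b had 5 reads in sepsis and 12 in controls and was not tested. Ppp1r27, a small ankyrin-repeat protein gene, had 203, 182 and 98.9 CPM in sepsis, against 85.2, 115, 127, 131 and 73.9 CPM in controls, and did not pass (log2 0.60, edgeR adjusted p = 0.0739). Septic library 3, at 98.9 CPM, lay within the control range, and without it the log2 fold change was 0.86 at edgeR adjusted p = 0.00596. The other tested members of PP1 gave log2 fold changes between -0.65 and 0.48 and did not pass, among them the nuclear subunit genes Ppp1r7, Ppp1r8 and Ppp1r10, named after their values were seen. Without the third septic library Ppp1r10 did pass, at -1.10 and edgeR adjusted p = 0.0276.

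In all, 7 of 24 tested PP1 regulatory genes were higher and 4 lower, against 25.2% of all genes in each direction. Of 12 PP2A regulatory genes, 1 was higher and 5 lower, against the same shares. The decreases were led by Ppp2r3a, which encodes a calcium-binding B″ subunit of PP2A. It had 71.01, 54.6 and 27.2 CPM in septic muscle, against 233, 249.9, 252, 235 and 240.3 CPM in control muscle. The control libraries lay close together and all septic libraries lay well below them. The gene was 4.77-fold lower (log2 -2.25, SE 0.25, edgeR adjusted p = 2.98e-05). Of the reads of the B″ genes, Ppp2r3a took 54.5% ± 11.1 in sepsis and 83.3% ± 3.17 in controls, and the groups did not overlap. Msl2 lies on the opposite strand at its 3′ end, with 288 reads in sepsis and 403 in controls, where Ppp2r3a had 646 in sepsis and 3879 in controls.

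B56 subunits, which among other things recruit PP2A to kinetochores and signalling proteins, gave 3 decreases among 5 genes, where 25.2% of all genes fell. Ppp2r5a had 63.6, 70.4 and 53.2 CPM in sepsis, against 93.5, 105, 107, 106 and 105 CPM in controls (log2 -0.72, SE 0.12, edgeR adjusted p = 0.000296). Ppp2r5c had 67.8, 64.9 and 47.03 CPM in sepsis, against 78.8, 85.1, 92.2, 94.7 and 83.2 CPM in controls (log2 -0.53, edgeR adjusted p = 0.00598). Ppp2r5b had 8.78, 9.87 and 6.62 CPM in sepsis, against 13.3, 17.9, 14.5, 13.7 and 15.6 CPM in controls (log2 -0.83, edgeR adjusted p = 0.00386). None of these 3 genes had overlapping groups, but with library totals alone none of the 3 decreases passed, at -0.30 for Ppp2r5a, -0.41 for Ppp2r5b and -0.11 for Ppp2r5c. Under that scaling Ppp2r5d and Ppp2r5e, both named after their values were seen, passed as higher at 0.54 and 0.76. With TMM scaling Ppp2r5e had 62.2, 53.1 and 67.6 CPM in sepsis, against 38.6, 52.1, 57.5, 46.3 and 44.6 CPM in controls, and did not pass (log2 0.35, edgeR adjusted p = 0.0601). Without the third control or the second septic library Ppp2r5e did pass, at 0.42 and 0.45 and edgeR adjusted p = 0.0375 and 0.0264. Ppp2r5e took 30.2% ± 5.30 of B56 reads in sepsis and 18.1% ± 1.598 in controls, and Ppp2r5a took 30.6% ± 2.73 in sepsis and 39.2% ± 1.21 in controls.

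**Figure D3:**
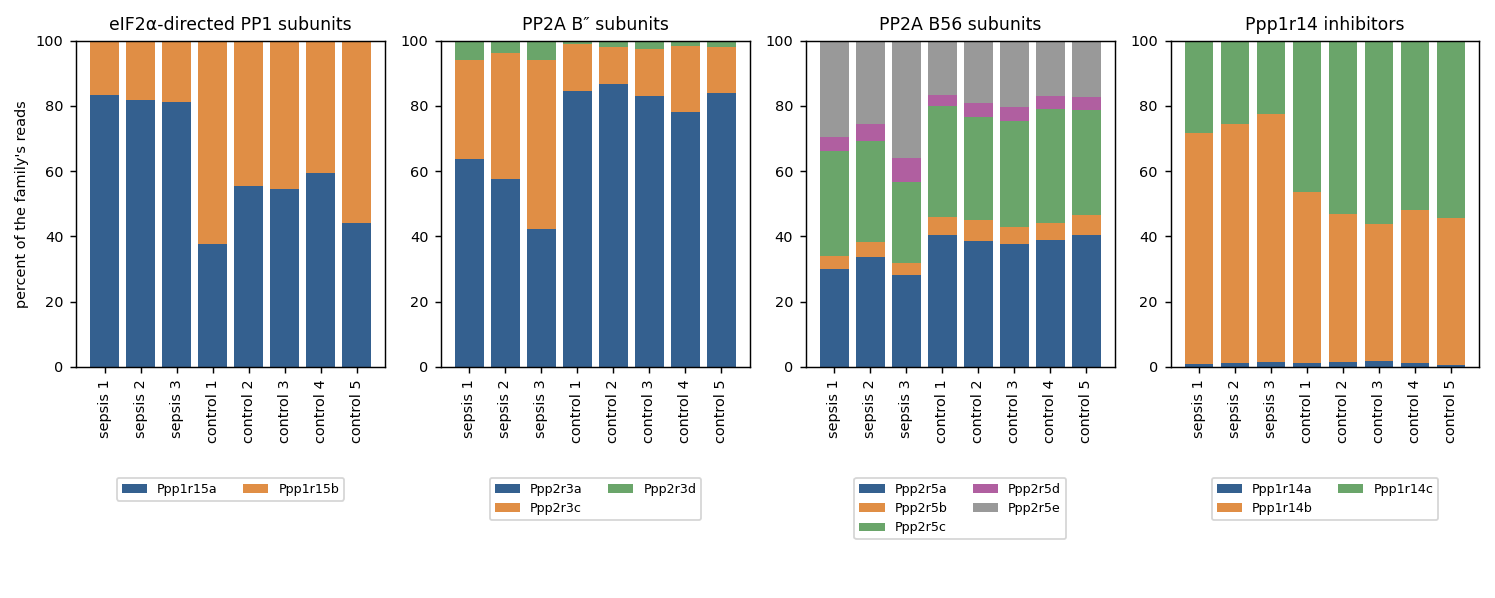
Percent of each family's reads taken by each gene (vertical axis) in each of the 3 septic and 5 control libraries (horizontal axis), in 4 panels for the eIF2α-directed PP1 subunits, the PP2A B″ subunits, the PP2A B56 subunits and the Ppp1r14 inhibitors. In each panel at least 1 gene takes a share that does not overlap between groups: Ppp1r15a took 81.2% to 83.4% in sepsis and 37.6% to 59.4% in controls.

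The single PP2A increase was that of Ppp2r2d, which encodes a B55 subunit. It had 68.9, 72.1 and 101 CPM in sepsis, against 51.1, 50.8, 56.3, 64.01 and 48.8 CPM in controls, with no overlap (log2 0.57, SE 0.15, edgeR adjusted p = 0.00574). Ppp2r2a, the other B55 gene with enough reads, had 120.5, 115 and 153 CPM in sepsis, against 134, 143, 143, 150.4 and 132 CPM in controls, with overlapping groups, and did not pass (log2 -0.12, edgeR adjusted p = 0.422). Ppp2r1a, the main scaffold subunit, had 47.9, 48.7 and 49.5 CPM in sepsis, against 57.2, 58.4, 65.7, 58.9 and 61.8 CPM in controls. Its groups did not overlap, and its log2 fold change of -0.31 passed narrowly (edgeR adjusted p = 0.0346). It missed the threshold without any single library other than the first control and the third septic library, at edgeR adjusted p of 0.0501 to 0.0781. With library totals alone, the log2 fold change of Ppp2r1a was 0.11 and that of Ppp2r2a 0.29, so neither direction holds under every scaling.

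Ppp3r1 encodes calcineurin B, the calcium-binding partner of calcineurin. It had 90.4, 72.7 and 77.4 CPM in sepsis, against 124, 129.6, 126, 129 and 136 CPM in controls, with no overlap. It was 1.61-fold lower (log2 -0.69, SE 0.11, edgeR adjusted p = 0.000228), and the call held under all 14 alternatives. Of its catalytic partners, Ppp3ca and Ppp3cb fell and Ppp3cc did not pass (log2 -0.087, edgeR adjusted p = 0.874). Ppp3ca had 243, 252 and 281 CPM in sepsis, against 533, 477, 496, 515 and 527 CPM in controls (log2 -0.98, SE 0.10, edgeR adjusted p = 4.99e-06). Ppp3cb had 64.4, 46.2 and 59.8 CPM in sepsis, against 123, 124, 129, 107 and 123 CPM in controls (log2 -1.10, SE 0.13, edgeR adjusted p = 2.01e-05). Ppp3r1 took 20.2% ± 2.16 of the reads of the calcineurin genes in sepsis and 16.9% ± 0.705 in controls. Wdr92 lies on the same strand as Ppp3r1 at its 3′ end and had 37 reads in sepsis and 87 in controls, where Ppp3r1 had 1025 in sepsis and 2064 in controls. Of 13 tested genes of calcineurin regulators and NFAT factors, 3 were higher and 4 lower, or 53.8% against 50.4% of all genes, with log2 fold changes of -1.36 for the calcineurin-binding sarcomere protein gene Myoz1, -1.62 for the inhibitor gene Rcan2 and 1.35 for Chp1, a calcineurin B homolog.

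Of 3 tested PP6 regulatory genes 1 passed, and of 4 tested PP4 regulatory genes 0 passed, against 50.4% of all genes. The PP4 genes gave log2 fold changes of 0.032 to 0.53. Ppp6r3, a PP6 targeting subunit, had 161, 119.7 and 192 CPM in sepsis, against 88.5, 91.97, 89.7, 104 and 94.3 CPM in controls, with no overlap (log2 0.75, SE 0.14, edgeR adjusted p = 0.000631). Ppp6r1 had 45.2, 44.1 and 26.7 CPM in sepsis, against 29.1, 32.96, 34.3, 33.3 and 27.7 CPM in controls, and did not pass (edgeR adjusted p = 0.177), but without septic library 3, which was low, its log2 fold change was 0.51 at edgeR adjusted p = 0.00741. Ppp4r1 had 9.04, 9.45 and 9.82 CPM in sepsis, against 8.05, 5.96, 7.83, 6.15 and 4.46 CPM in controls, and did not pass although its groups did not overlap (log2 0.53, edgeR adjusted p = 0.0679).

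**Figure D4:**
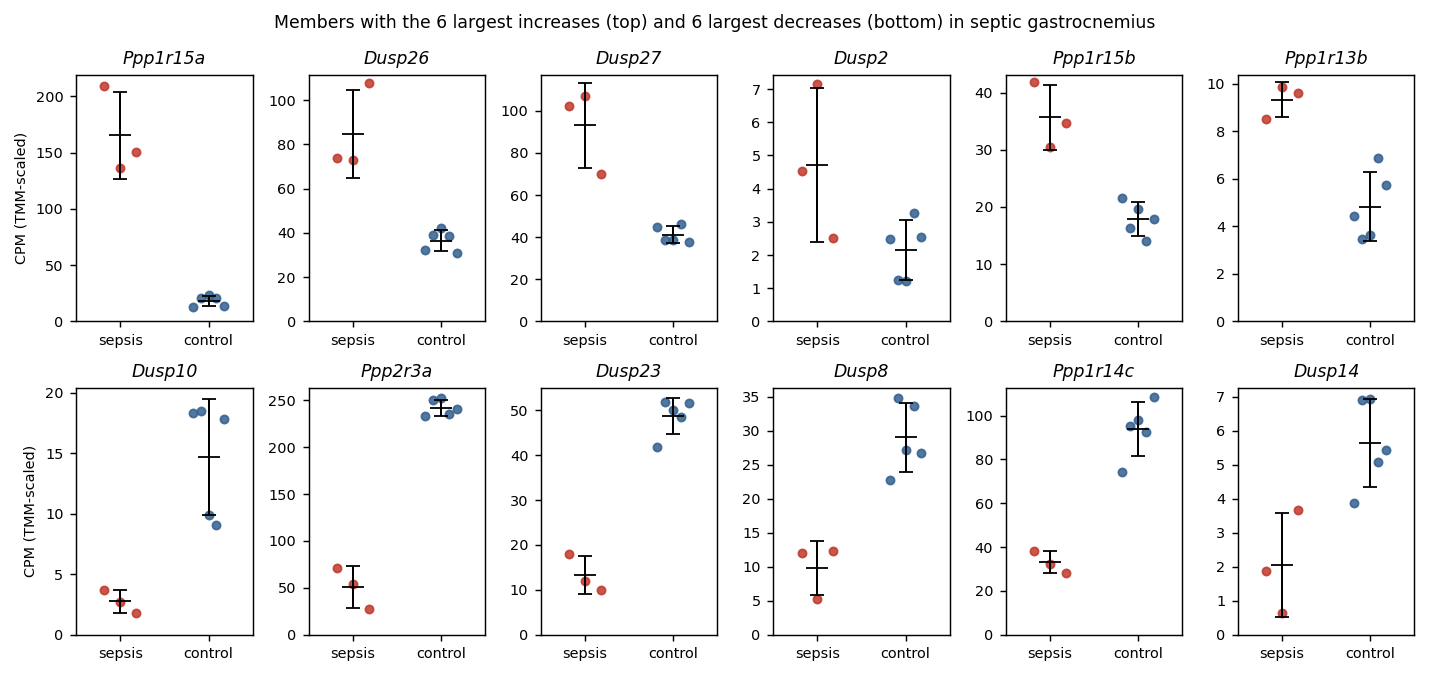
CPM with TMM-scaled library sizes (vertical axis, from 0) of the 6 members with the largest increases and the 6 with the largest decreases, with 1 point per library and bars for mean ± SD, for 3 septic and 5 control libraries. The groups overlap for Dusp2 and for no other gene shown; Ppp1r15a lies at 137 CPM or above in sepsis and at 23.5 CPM or below in controls.

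The MAP kinase phosphatases, 7 of which were tested, gave 2 increases and 3 decreases, where 25.2% of all genes rose and 25.2% fell. Dusp10 encodes MKP-5, which acts on JNK and p38, and had the largest decrease of any member. It had 3.72, 2.73 and 1.83 CPM in sepsis, against 18.3, 18.5, 9.94, 9.04 and 17.8 CPM in controls. The controls spread about a high and a low level, and all septic libraries lay below the lowest of them. Dusp10 was 5.37-fold lower (log2 -2.42, SE 0.34, edgeR adjusted p = 6.59e-05), on 35 reads in sepsis and 239 in controls. Dusp8, whose product also acts on JNK and p38, had 11.97, 5.25 and 12.3 CPM in sepsis, against 22.8, 34.8, 27.1, 33.6 and 26.8 CPM in controls. Its groups did not overlap, and it was 2.96-fold lower (log2 -1.57, SE 0.26, edgeR adjusted p = 0.000272). Dusp16, which encodes the JNK phosphatase MKP-7, was higher at 19.7, 17.2 and 20.3 CPM in sepsis, against 13.05, 16.01, 12.9, 13.4 and 13.7 CPM in controls. The log2 fold change of Dusp16 was 0.46 (SE 0.16, edgeR adjusted p = 0.0287), with no overlap, but it missed the threshold without control 1, 3, 4 or 5 or septic library 1 or 3, at edgeR adjusted p of 0.0507 to 0.082.

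Other MAP kinase phosphatases rested on wider spread. Dusp2, an inducible nuclear phosphatase best known from immune cells, had 4.52, 7.14 and 2.51 CPM in sepsis, against 2.50, 1.26, 1.20, 3.25 and 2.55 CPM in controls, on 62 reads in sepsis and 34 in controls. The groups overlapped, and the log2 fold change of 1.15 (edgeR adjusted p = 0.0358) dropped to 0.70 at edgeR adjusted p = 0.234 without the second septic library; without control 2, control 3 or septic library 1 the edgeR adjusted p was 0.0805, 0.082 and 0.0623. The neutrophil and macrophage markers given above were higher in the same septic libraries, and their part in the level of Dusp2 was not tested. Dusp2 passed the filter on low counts mainly through the septic libraries, the group where it was higher. Dusp7, a cytoplasmic ERK phosphatase, had 21.3, 11.97 and 15.5 CPM in sepsis, against 18.9, 23.5, 26.2, 22.1 and 30.9 CPM in controls, also with overlap (log2 -0.59, edgeR adjusted p = 0.0355). It missed the threshold without the second septic library (log2 -0.40, edgeR adjusted p = 0.141), the third, or control 2, 3 or 5 (edgeR adjusted p from 0.0559 to 0.0871). Dusp1, the immediate-early MKP-1, had 35.6, 35.5 and 51.6 CPM in sepsis, against 21.7, 35.8, 43.97, 75.9 and 50.98 CPM in controls. The controls of Dusp1 enclosed the septic libraries, and its log2 fold change of -0.15 did not pass (SE 0.34, edgeR adjusted p = 0.741). Dusp6, a further ERK phosphatase, had 11.2, 16.8 and 9.82 CPM in sepsis, against 28.9, 8.79, 10.5, 13.4 and 17.5 CPM in controls, and did not pass (log2 -0.33, edgeR adjusted p = 0.472). Dusp4, with 24 reads in sepsis and 9 in controls, was too low for the filter; without the filter its log2 fold change was 1.72 at edgeR adjusted p = 0.0559.

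The other DUSP genes, mostly small atypical enzymes, gave 3 increases and 4 decreases among 12 tested, or 25.0% and 33.3%, near the 25.2% of all genes in each direction. Dusp23, which encodes VHZ, had 18.1, 11.97 and 10.05 CPM in sepsis, against 41.9, 51.8, 49.99, 48.5 and 51.6 CPM in controls. All septic libraries lay far below the controls, and the gene was 3.67-fold lower (log2 -1.87, SE 0.19, edgeR adjusted p = 3.98e-06). Dusp3, which encodes VHR and acts on ERK and JNK, had 43.1, 62.6 and 38.4 CPM in sepsis, against 108, 115, 125, 118 and 116 CPM in controls. It was 2.42-fold lower with no overlap (log2 -1.28, SE 0.16, edgeR adjusted p = 2.02e-05). An antisense gene lies at its 3′ end in the reference annotation, and its reads could not be told apart from those of Dusp3 if strand was not used. Dusp22, a phosphatase linked to JNK signalling, had 12.5, 18.5 and 6.85 CPM in sepsis, against 33.03, 27.9, 23.8, 22.8 and 27.4 CPM in controls (log2 -1.09, edgeR adjusted p = 0.00368). Dusp14 had 1.86, 0.63 and 3.65 CPM in sepsis, against 3.89, 6.91, 6.93, 5.06 and 5.42 CPM in controls (log2 -1.46, edgeR adjusted p = 0.0128). Neither Dusp22 nor Dusp14 had overlapping groups. Dusp14 passed the filter on low counts mainly through the control libraries, the group where it was higher, with 7, 3 and 16 reads in the septic libraries. Its call is counted among the DUSP decreases and among the DUSP changes of at least 2-fold.

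Increases among these genes included Dusp26, an atypical phosphatase, which had 73.9, 72.9 and 108 CPM in sepsis, against 32.2, 38.9, 42.2, 38.7 and 30.9 CPM in controls. Its groups did not overlap, and it was 2.32-fold higher (log2 1.21, SE 0.16, edgeR adjusted p = 3.43e-05). Dusp27, named Styxl2 in newer annotations, encodes a muscle pseudophosphatase without catalytic activity that is needed for sarcomere assembly in zebrafish. It had 102, 107 and 69.9 CPM in sepsis, against 44.97, 38.6, 38.5, 46.3 and 37.9 CPM in controls, and was 2.26-fold higher with no overlap (log2 1.17, SE 0.15, edgeR adjusted p = 2.86e-05). The summed muscle fibre markers, given above, were lower in the same libraries, and their part in the level of Dusp27 was not tested. Dusp11, which removes phosphates from the 5′ ends of RNA, had 23.4, 22.3 and 31.96 CPM in sepsis, against 17.5, 15.1, 18.4, 10.5 and 18.2 CPM in controls (log2 0.69, edgeR adjusted p = 0.0109). Without the third septic library Dusp11 stood at 0.51 and edgeR adjusted p = 0.0557. Dusp13, a gene of testis and skeletal muscle, had 69.2, 63.9 and 38.1 CPM in sepsis, against 49.4, 48.7, 45.2, 44.5 and 49.4 CPM in controls, and did not pass (log2 0.26, edgeR adjusted p = 0.213). Septic library 3 was lower than every control, and without it the log2 fold change was 0.49 at edgeR adjusted p = 0.00357. Dusp18 had 41.8, 17.2 and 18.04 CPM in sepsis, against 21.7, 21.03, 38.2, 23.5 and 22.9 CPM in controls, and did not pass (edgeR adjusted p = 0.994).

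Outside calcineurin, the catalytic genes that rose were Ppp2ca, Ppp4c and Ppp6c, and Ppp5c fell. Ppp2ca, the main PP2A catalytic subunit gene, had 223, 141 and 163 CPM in sepsis, against 90.8, 88.2, 90.3, 97.6 and 75.8 CPM in controls, and was 1.98-fold higher with no overlap (log2 0.99, SE 0.14, edgeR adjusted p = 9.12e-05). Its paralog Ppp2cb did not pass, at 7.45, 6.09 and 4.57 CPM in sepsis, against 8.33, 3.77, 7.53, 3.98 and 6.05 CPM in controls. Long noncoding RNA genes lie on the opposite strand at the 3′ end of Ppp2ca. Ubxn8 lies so at that of Ppp2cb, with 372 reads in sepsis and 421 in controls, where Ppp2cb had 77 in sepsis and 97 in controls. The reads of both genes are less certain for that reason. The scaffold gene Ppp2r1a was lower in the same libraries, as given above. Of the PP1 catalytic genes, Ppp1ca, Ppp1cb and Ppp1cc gave log2 fold changes of -0.15, 0.25 and 0.21, and none passed (edgeR adjusted p = 0.374, 0.136 and 0.128). Without the second septic library Ppp1cb did pass, at 0.39 and edgeR adjusted p = 0.0216. With library totals alone Ppp1cb and Ppp1cc passed as higher, at 0.67 and 0.63 and edgeR adjusted p = 0.000467 and 0.00016. Ppp6c was higher (log2 0.46, edgeR adjusted p = 0.0163), a call lost without the third septic library at 0.34 and edgeR adjusted p = 0.0737. Ppp4c, on a few reads per library, was higher (log2 0.87, edgeR adjusted p = 0.0439) and kept its call under leave-one-out only without the first control, the other edgeR adjusted p being 0.0541 to 0.11. It passed the filter on low counts through the septic libraries alone, at 18, 21 and 17 reads. Its call, counted among the catalytic increases, therefore rests on a gene let in by the group where it was higher. Ppp5c was lower (log2 -0.46, edgeR adjusted p = 0.0267) and missed the threshold without control 1, 2 or 4 or septic library 2, at edgeR adjusted p of 0.0514 to 0.0606. With library totals alone Ppp5c stood at -0.04 and edgeR adjusted p = 0.839. The summed level of the 13 catalytic genes was 753 to 905 CPM in sepsis and 1031 to 1069 CPM in controls. The 3 calcineurin catalytic genes summed to 299 to 344 CPM in sepsis and 604 to 658 CPM in controls, and the other 10 to 454 to 583 CPM in sepsis and 409 to 427 CPM in controls, so the lower total lay in the calcineurin genes. DUSP genes summed to 459 to 526 CPM in sepsis and 505 to 558 CPM in controls. Regulatory genes summed to 1844 to 2076 CPM in sepsis and 1826 to 2057 CPM in controls, so the total of this class overlapped between groups. Of its 44 tested genes 19 changed, or 43.2%, against 50.4% of all genes.

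Neighbouring gene groups were counted in the same fit, in which 50.4% of all genes passed, 25.2% in each direction. The lists below passed in 66.7% of MAP kinase genes, 58.3% of other dual-specificity genes, 56.2% of PPM and PDP genes, 71.4% of PP2A assembly genes and 36.4% of PP1 partners. Of 15 tested MAP kinases and MAP kinase kinases, the substrates and activators next to the DUSP genes, 4 were higher and 6 lower. Map2k6, a p38-activating kinase, had a log2 fold change of -2.03, Mapk6 of 0.98 and Map2k2, an ERK-activating kinase, of -0.57. With library totals alone Map2k2 had -0.15 and edgeR adjusted p = 0.264. Of 12 tested genes of other dual-specificity phosphatases, 1 was higher and 6 lower, with 1.74 for the cofilin phosphatase gene Ssh2, -1.08 for Ptp4a2 and -1.16 for the pseudophosphatase gene Styx. Of 16 tested metal-dependent PPM and PDP phosphatases, 3 were higher and 6 lower, with -1.75 for Ppm1l, -2.03 for Ppm1j and 0.98 for Ppm1g. Of 14 tested PP2A assembly, methylation and inhibitor genes, 4 were higher and 6 lower, with 1.54 for the PP2A-B55 inhibitor gene Arpp19, -1.34 for the methyltransferase gene Lcmt1 and 1.02 for Igbp1, which binds free catalytic subunits. Of 22 tested PP1 partners with other symbols, 4 were higher and 4 lower, with 2.14 for Csrnp1, 1.09 for Mphosph10 and -0.97 for Zfyve9.

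**Figure D5:**
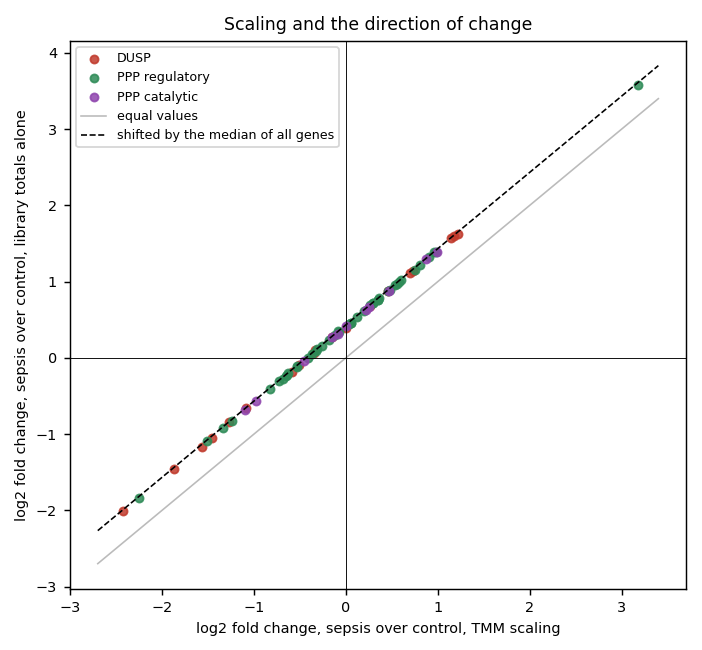
Log2 fold change of sepsis over control with library totals alone (vertical axis) against that with TMM scaling (horizontal axis), with 1 point per tested DUSP, PPP regulatory or PPP catalytic gene; the grey line marks equal values and the dashed line equal values plus 0.43, the median of all genes with library totals. The points follow the dashed line, and 15 of the 74 genes, all below 0 on the horizontal axis, lie above 0 on the vertical axis.

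The calls that did not depend on a setting were 15 of the 31, that is, they passed in the same direction under TMM scaling and all 14 alternatives. They were Dusp26, Dusp27, Ppp1r12a, Ppp1r13b, Ppp1r15a, Ppp1r15b, Ppp2r2d and Ppp6r3, which were higher, and Dusp3, Dusp8, Dusp10, Dusp23, Ppp1r14c, Ppp2r3a and Ppp3r1, which were lower. Of these, 6 are DUSP and 9 regulatory genes. How many of all genes tested kept their calls in this way was not counted, so the 15 have no background share beside them. The other 16 calls were lost in at least 1 alternative. With library totals alone 10 were lost, those of Dusp7, Dusp14, Dusp22, Ppp1r3d, Ppp1r11, Ppp1r16a, Ppp2r1a, Ppp2r5a, Ppp2r5b and Ppp2r5c, all of them lower with TMM scaling, and 15 other members passed, all of them higher. DESeq2 lost the calls of Dusp2, Dusp16, Ppp1r3d and Ppp2r1a and gained that of Ppp1r27. The 24 members that were not tested held few reads, and 6 of them held none. Without the filter on low counts, Ppp1r35 had a log2 fold change of 2.07 on 28 reads in sepsis and 8 in controls (edgeR adjusted p = 0.0193), and Ppp1r26 one of -2.01 on 5 reads in sepsis and 27 in controls (edgeR adjusted p = 0.0253). Both were named after their values were seen.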

How the data were processed

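The members and gene lists were chosen with earlier results of these data known, so no test over a list is given. The deposited file holds unnormalized counts by gene, 1 unpooled column for each library, per the file headers. Libraries were made with a QuantSeq 3′ kit from 25 ng of total RNA, per the labels' protocols, and the genome build was GRCm39, per the submitters' processing notes. For the aligner, counting tool, strand handling and annotation, the version or setting is not given in the sources used here. Such counts are not divided by transcript length, and reads of overlapping or near-identical genes may be shared.

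Counts were fitted in R 4.3.3 with edgeR 4.0.16: TMM scaling, the expression filter with min.count 10 and min.total.count 15, and the robust quasi-likelihood F test of 3 septic against 5 control libraries without covariates. P-values were adjusted by Benjamini-Hochberg over the 9810 genes tested, with a threshold of 0.05. The SE is the absolute log2 fold change divided by the square root of F. Same-numbered libraries of the groups gave correlations of -0.124, 0.0409 and -0.0196 of their deviations, so numbers were not used as pairs. Alternatives were RLE, upper-quartile or no scaling factors, no filter on low counts, DESeq2 1.42.0, a replicate block and leaving out each library. The procedure was tested on simulated data. Depth limits genes of few reads; counting without molecular identifiers covers counting error only.

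Genes named are the 10 largest increases and decreases among members that passed, a set of key members, all tested catalytic subunits, and up to 3 genes per further list with the smallest p; others are said to be chosen after their values were seen. No row was found for Dusp29, a key member. Gene order at 3′ ends comes from an annotation of an earlier build, without coordinates. Neighbours also lie at the 3′ ends of further genes named above, among them Ppp1r1a, Ppp1r11, Ppp1r27, Ppp2r5b, Ppp2r5d and Ppp4c.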

Additional observations from a re-analysis of the deposited data

Results flagged for a closer look

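In 5 of 76 genes examined, 1 control library stood apart from the other 4, with a gap to its neighbour of more than 0.71 of the range of the 5 controls. Chance alone flags about 1 in 20 groups. Dusp16 had 16.0 CPM in control 2, against 12.9 to 13.7 CPM in the other controls. Dusp18 had 38.2 CPM in control 3, against 21.0 to 23.5 CPM in the other controls. Ppp2r5a had 93.5 CPM in control 1, against 105 to 107 CPM in the other controls. Ppp1cc had 95.0 CPM in control 5, against 80.7 to 83.0 CPM in the other controls. Chp1 had 55.2 CPM in control 1, against 43.1 to 45.6 CPM in the other controls.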

How the results depend on the processing

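Scaling by library totals alone gave 29 members higher and 7 lower, with a median log2 fold change of 0.35, and 57.5% of all genes passed. Regulatory genes were 22 higher and 3 lower, 9 at least 2-fold, with a median of 0.45. DUSP genes had 4 lower and a median of 0.10. Catalytic genes had 5 higher, 2 at least 2-fold and a median of 0.42. Under that scaling 15 of 74 member and catalytic genes changed sign; those with a call under either scaling were Ppp2r1a at 0.11, Ppp2r2a at 0.29 and Ppp1r7 at 0.33. Upper-quartile factors gave a member median of -0.12 and 2 catalytic genes at least 2-fold, as did no filter on low counts with 2. DESeq2 gave 3 DUSP increases. Replicate numbers shared by the groups did not pair the libraries; with a replicate block there were 3 DUSP increases, 6 regulatory decreases and 1 catalytic increase, and 22 of the 31 members kept their calls. In these cases the cause was not tested, apart from the common shift of 0.43 that library totals give all genes. Leaving out each library in turn gave 12 to 16 members higher and 14 to 19 lower, 12 to 15 at least 2-fold, with medians from -0.081 to 0.050. For DUSP genes the ranges were 3 to 4 higher, 6 to 8 lower, 7 to 9 at least 2-fold and medians from -0.54 to -0.18. For regulatory genes they were 8 to 12 higher, 8 to 11 lower, 4 to 6 at least 2-fold and medians from -0.04 to 0.11. For catalytic genes they were 1 to 3 higher, 2 to 3 lower, 1 to 3 at least 2-fold and medians from -0.11 to 0.26. DUSP increases numbered 3 without control 3 or septic library 1, and catalytic increases numbered 1 without septic library 3.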
